A study of Saccharomyces cerevisiae with 6 samples.

Results

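The introns of 8 budding yeast genes for splicing and RNA processing factors were followed in the prp2-1 mutant and in the wild type (WT). The genes were chosen by function and by locus name: MUD1 (YBR119W), SMD2 (YLR275W), LSM2 (YBL026W), LSM7 (YNL147W) and YSF3 (YNL138W-A) of the small nuclear ribonucleoproteins (snRNPs), POP8 (YBL018C) of RNase P, TAD3 (YLR316C) of tRNA editing and NMD2 (YHR077C) of mRNA decay. All introns counted for them were taken, which gave 9 of the 309 introns and 8 of the 298 genes in the count table, since TAD3 has 2. The assay, multiplexed primer extension sequencing, starts cDNA synthesis from pooled primers downstream of introns, and each read is counted as spliced or as unspliced. There were 3 libraries of prp2-1 (strain EJS7) and 3 of WT (strain EJS1), named replicates A to C. Both strains were grown in rich liquid medium at 25 °C to mid-log phase and held at 37 °C for 15 minutes before harvest, so heat was common to both groups. Each genotype was 1 strain, and the labels do not say that the 3 libraries came from separate cultures. The p-values thus rest on the spread between libraries, which may be technical. The edgeR fits share this spread in part over introns, so their p-values do not measure the spread of 1 intron alone.

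Prp2 is a DEAH-box ATPase that remodels the assembled spliceosome before the first chemical step of splicing, and prp2-1 is a temperature-sensitive allele. Mud1 is a protein of the U1 snRNP, which recognises the 5′ splice site, and Ysf3 is a subunit of the SF3b complex of the U2 snRNP, which acts at the branch site. SmD2, encoded by SMD2, is part of the Sm ring on U1, U2, U4 and U5 RNAs. Lsm2 and Lsm7 belong to the related ring on U6 RNA, and also to the cytoplasmic ring that promotes decapping. Pop8 is a shared subunit of RNase P and RNase MRP, which process precursors of tRNA and rRNA. Tad3 is a subunit of the tRNA adenosine deaminase that makes inosine at the wobble position. Nmd2, also called Upf2, is a core factor of nonsense-mediated decay, which in yeast also destroys some unspliced transcripts that reach the cytoplasm.

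The intron sequences are given first because every count refers to them. They were read from the RefSeq copy of build R64, which is also the build named in the submitters' processing notes, and run 5′ to 3′ on the transcribed strand. Capitals mark the first 6 bases, the nearest match to the branch motif TACTAAC and the last 3 bases. MUD1 and SMD2 are shown for their large changes, YSF3 for its high unspliced level in WT, LSM7 for its unusual last bases, and the TAD3 introns because they share a transcript.
MUD1: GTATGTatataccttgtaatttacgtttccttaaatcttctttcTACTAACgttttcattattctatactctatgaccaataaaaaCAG
SMD2: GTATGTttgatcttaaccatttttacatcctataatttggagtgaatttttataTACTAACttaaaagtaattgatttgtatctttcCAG
YSF3: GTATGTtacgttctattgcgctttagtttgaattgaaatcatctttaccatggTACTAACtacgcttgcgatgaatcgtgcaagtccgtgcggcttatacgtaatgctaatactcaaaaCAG
LSM7: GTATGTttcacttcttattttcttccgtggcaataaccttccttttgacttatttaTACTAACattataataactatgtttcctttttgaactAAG
TAD3 intron 1: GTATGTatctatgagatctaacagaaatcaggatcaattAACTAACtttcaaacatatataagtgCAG
TAD3 intron 2: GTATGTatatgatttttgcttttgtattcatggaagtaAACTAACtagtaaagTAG

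All 9 introns began with GTATGT, as did 204 of the 279 introns of the table that could be placed on the annotation (73.1%). The motif TACTAAC was present in 7 of them, and on the transcribed strand in 230 of the 279 placed introns (82.4%); on the opposite strand 5 placed introns (1.79%) held it. The nearest match in both TAD3 introns was AACTAAC, which differs at 1 base. The distance from the branch adenosine of the match to the last base ran from 12 bases in TAD3 intron 2 through 19 in POP8 and 23 in TAD3 intron 1 to 63 in YSF3, beside a median of 34 over the placed introns. LSM7 ended with AAG, as did 13 of the placed introns (4.66%). Their lengths ran from 56 bases in TAD3 intron 2 to 128 in LSM2. The median was 139 bases over all placed introns and 97 over the 189 outside ribosomal protein genes, and LSM2, YSF3 and NMD2 were longer than the second of these. These matches describe the letters and are not mapped sites.

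The introns lay on chromosome II in MUD1 (chrII:479346-479434, plus strand), LSM2 (chrII:170677-170804, plus strand) and POP8 (chrII:186353-186427, minus strand). SMD2 (chrXII:694383-694472, plus strand) and TAD3 were on chromosome XII, where TAD3 intron 1 was taken as chrXII:766182-766249 and intron 2 as chrXII:766074-766129 on the minus strand. This assumes that the table numbers introns in the order of transcription, which it does not state. LSM7 (chrXIV:350958-351053, plus strand) and YSF3 (chrXIV:366036-366157, plus strand) were on chromosome XIV, and NMD2 (chrVIII:255638-255750, minus strand) on chromosome VIII. All 9 interrupt coding sequence. In YSF3, SMD2, NMD2 and MUD1 the intron follows only 3, 5, 6 and 8 coding bases, and in LSM7 18. POP8 and LSM2 have 47 and 54 coding bases before it, and TAD3 109 before intron 1 and 161 before intron 2. No other annotated gene (0) overlapped a member intron, while YLR315W overlaps part of TAD3.

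Library totals ranged from 1845258 to 2671271 counted reads in prp2-1 and from 1612685 to 2516774 in WT. The 9 introns held 0.170% to 0.218% of them in prp2-1 and 0.135% to 0.161% in WT, so that counts of single introns were often under 100. Intervals below cover counting error only. The PRP2 transcript itself is not among the counted introns. As a check for another cell type or state, the 12 introns of HMRA1, a copy of the gene for the a1 regulator of MATa cells, and of 9 meiotic genes were summed. HMRA1 had 1 to 6 reads per library in prp2-1 and 4903 to 6526 in WT. The meiotic introns summed to 482 to 1011 reads in prp2-1 and 189 to 369 in WT. Of these, 38 to 59 were spliced in prp2-1 and 70 to 167 in WT. Unspliced reads numbered 444 to 963 in prp2-1 and 119 to 202 in WT. The larger sum in prp2-1 thus lay in unspliced reads, while spliced reads were fewer. Whether expression of these genes differed was not tested. Reads were found for 11 of the 12 introns in each group; HMRA1 intron 2 was at 0 in prp2-1 and HOP2 intron 1 in WT. HMRA1 and the meiotic sum thus separated the 2 strains without overlap, and their part in the results was not tested.

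The deposited random draws of the same libraries were set against the full counts before any comparison. A draw takes a subset of a library, so it should not hold more reads than the full count. The mean of the deepest draws, of 800000 reads, was compared with the full count multiplied by each library's counted share. For 6 of the 9 introns every sum with 5 or more expected reads lay within 1.5 times the expectation in both groups and no draw exceeded the full count. SMD2 had 59, 75 and 66 spliced reads in WT replicates A, B and C in the full table. The deepest draws held up to 74, 87 and 60, and their mean summed to 188 where 55.5 was expected, a factor of 3.39. POP8 had 0 unspliced reads in each WT library of the full table, while the draws held up to 2, 2 and 3 and averaged 5.2 over the 3 libraries. TAD3 intron 2, with 2 unspliced WT reads in all, also had a draw above the full count. In the whole series 47 of 309 introns had such a draw. Which table counts SMD2 and POP8 as intended was not settled, so both values are given for them, and the plot of drawn against full counts shows where they leave the line.

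**Figure D1:**
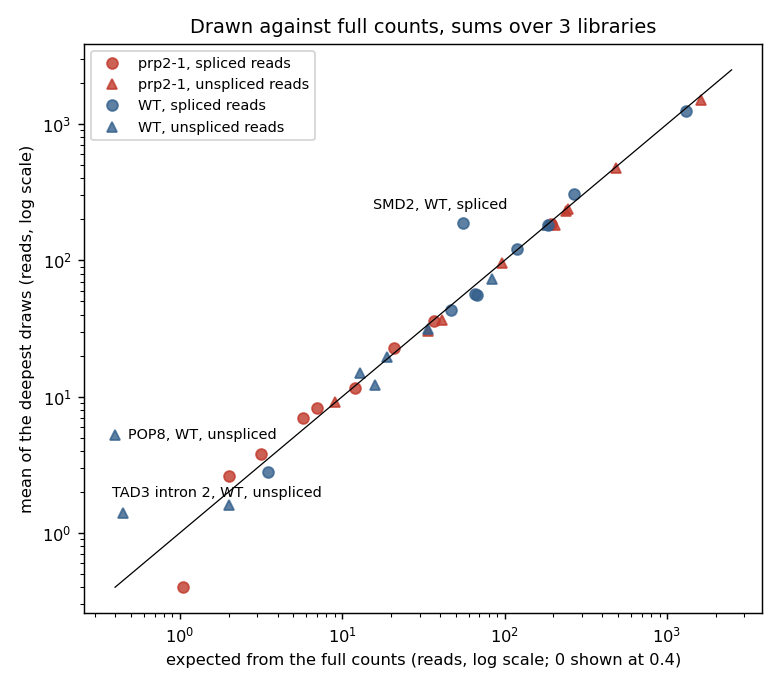
Mean of the deepest draws (vertical axis, reads, log scale) against the number expected from the full counts (horizontal axis, reads, log scale) for the 9 introns, each symbol a sum over the 3 libraries of prp2-1 or WT, with an expected 0 drawn at the left edge. Most symbols lie near the line of equality; the spliced WT reads of SMD2 (188 against 55.5 expected) and the unspliced WT reads of POP8 (5.2 against 0) lie far above it.

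The main comparison asked how much more of each intron was left unspliced in prp2-1 than in WT. The ratio of unspliced to spliced reads rose in all 8 member introns with enough reads to be tested (a mean of at least 10 per library). Over all tested introns it rose in 256 of 274, or 93.4%, and over the 170 outside ribosomal protein genes in 91.8%, so the count alone does not set the members apart. The median log2 change was 7.16 over the 8 members, 6.50 without POP8 and SMD2, and 4.65 over all tested introns. Over the 162 tested introns that were in neither a ribosomal protein gene nor a member it was 5.36. In every member each prp2-1 library had a higher unspliced percent than each WT library, as in 92.0% of all tested introns. The median member stood at 92.5% ± 1.83 unspliced in prp2-1 and 14.6% ± 1.06 in WT (every ± is the SD of n = 3 libraries). The 162 other introns had medians of 90.9% ± 3.18 in prp2-1 and 10.3% ± 0.320 in WT, and the 104 ribosomal protein introns 2.39% ± 0.738 in prp2-1 and 0.140% ± 0.00211 in WT.

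**Figure D2:**
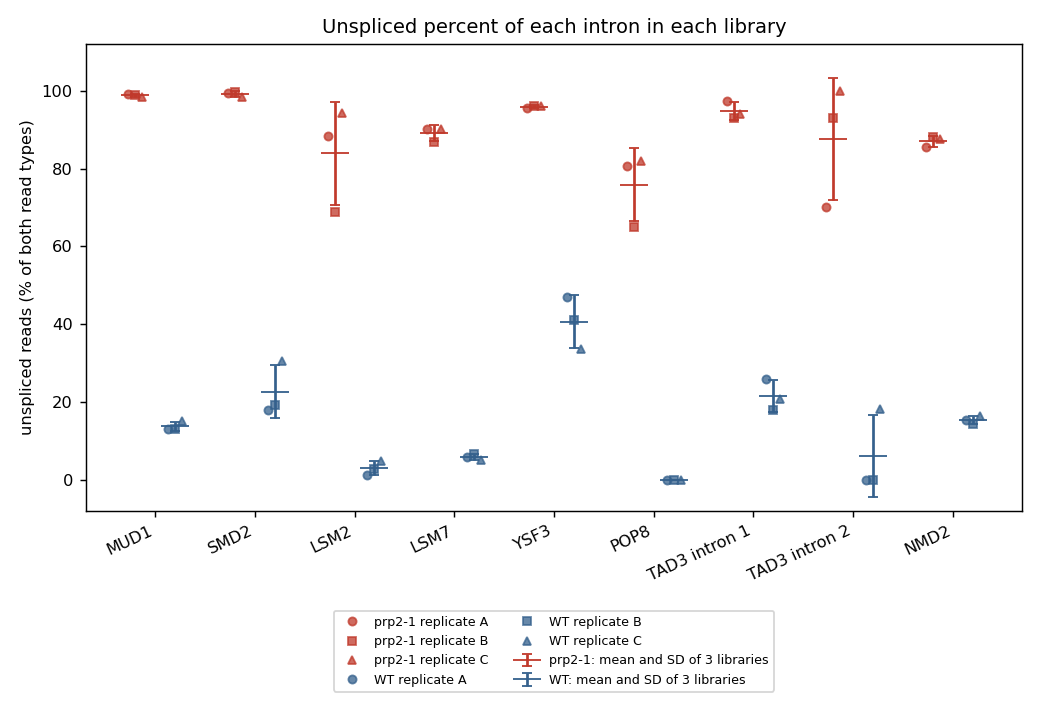
Unspliced reads as a percent of spliced plus unspliced reads (vertical axis) for each intron of the 8 genes, with prp2-1 left of WT; symbols are libraries, and bars the mean and SD of 3. The prp2-1 libraries lie between 65.1% and 100% and the WT libraries between 0% and 47.1%, with no overlap in any intron and the widest spread in LSM2, POP8 and TAD3 intron 2.

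Among the U1 and Sm proteins the spliced form was almost absent in prp2-1. MUD1 had 222, 337 and 425 unspliced reads beside 2, 4 and 7 spliced reads in prp2-1 replicates A, B and C. In the WT replicates it had 22, 20 and 27 unspliced beside 145, 133 and 153 spliced reads. The mutant libraries were thus nearly all unspliced and the WT libraries mostly spliced: 98.8% ± 0.367 unspliced in prp2-1 and 13.8% ± 1.08 in WT. The log2 change of the ratio was 8.87 (SE 0.493, adjusted p = 4.46e-14, edgeR), and the fold from summed reads was 467 (95% counting interval 254 to 933).

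SMD2 had 203, 270 and 353 unspliced reads and 1, 1 and 6 spliced reads in prp2-1 replicates A, B and C. Its WT libraries had 13, 18 and 29 unspliced and 59, 75 and 66 spliced reads. This gives 99.2% ± 0.720 unspliced in prp2-1 and 22.7% ± 6.86 in WT, and a log2 change of 8.46 (SE 0.593, adjusted p = 2.60e-12, edgeR), which was 9.47 without prp2-1 replicate C. In the deepest draws the WT level was 6.38% and the log2 change 10.21 (adjusted p = 5.54e-19, edgeR). The spliced means of these draws in prp2-1 replicates A, B and C were 0.4, 0.2 and 2 reads, so that log2 change rests on few reads. The draws entered as their mean per library, rounded to whole reads, and share reads, so p-values from them do not measure the strength of evidence. For the ratio of LSM7 the draws gave an adjusted p of 2.36e-22, where the full counts, with more reads, gave 7.72e-15 (edgeR). The mutant level hardly depended on the table, at 98.8% in the draws, whereas the WT level was several times higher in the full counts.

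The genes of the U6 ring, LSM2 and LSM7, began from low unspliced levels in WT. LSM7 was by far the most deeply counted member, with 2033, 2179 and 2311 unspliced and 219, 329 and 250 spliced reads in prp2-1, against 89, 116 and 95 unspliced and 1398, 1618 and 1757 spliced reads in WT. Its unspliced percents of 90.3%, 86.9% and 90.2% in prp2-1 and 5.99%, 6.69% and 5.13% in WT lay close together within each group. The log2 change was 7.04 (SE 0.353, adjusted p = 7.72e-15, edgeR), with a counting interval of the fold from 113 to 150.

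LSM2 was counted about as often as POP8, with only 43 to 74 reads per library in prp2-1 and 75 to 101 in WT. It had 38, 51 and 50 unspliced and 5, 23 and 3 spliced reads in prp2-1, and 1, 2 and 5 unspliced and 76, 73 and 96 spliced reads in WT. The 23 spliced reads of prp2-1 replicate B put that library at 68.9% unspliced (Wilson 95% interval 57.7% to 78.3%), below replicates A and C at 88.4% and 94.3%. The log2 change was 7.28 (SE 0.767, adjusted p = 3.10e-09, edgeR), and the unspliced percent averaged 83.9% ± 13.3 in prp2-1 and 2.97% ± 1.85 in WT. The log2 change was 8.31 without prp2-1 replicate B and 7.92 without WT replicate C, the library with 5 of the 8 unspliced WT reads.

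YSF3, the SF3b gene, was the member with the most unspliced RNA in WT. It had 555, 649 and 777 unspliced and 26, 26 and 32 spliced reads in prp2-1, against 215, 226 and 216 unspliced and 242, 323 and 429 spliced reads in WT. Its unspliced percent was 95.9% ± 0.334 in prp2-1 and 40.6% ± 6.80 in WT, where replicate C had 33.5% and replicate A 47.1%. The log2 change of 5.11 (SE 0.383, adjusted p = 8.69e-12, edgeR) was the lowest of the 8, although only SMD2 and MUD1 had a higher mutant level.

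Of the other 3 genes, POP8 of RNase P had 54, 41 and 68 unspliced and 13, 22 and 15 spliced reads in prp2-1. In WT the full table has 0 unspliced and 71, 75 and 94 spliced reads. A count of 0 in 240 reads allows a share of up to 1.25%, and against that floor of 3 reads over the 3 WT libraries the ratio was at least 261-fold higher. The draws do not bear out the 0: their WT libraries held 26 unspliced and 283 spliced reads over 15 draws, a mean of 8.74% ± 4.11. With the draws the log2 change was 5.39 (adjusted p = 9.93e-10, edgeR, with the limit on p-values from draws given for SMD2). That fit used WT unspliced means of 1.4, 1.4 and 2.4 reads in replicates A, B and C, each rounded to whole reads. The ratio of POP8 thus rose with either table, but the size of the rise did not hold. In prp2-1 the tables differed little, with 75.9% ± 9.37 in the full counts and 75.3% ± 3.85 in the draws, the lowest mutant level among the members.

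TAD3 intron 1 had 74, 135 and 187 unspliced and 2, 10 and 12 spliced reads in prp2-1, and 15, 12 and 20 unspliced and 43, 55 and 76 spliced reads in WT. The unspliced percent was 94.8% ± 2.25 in prp2-1 and 21.5% ± 4.02 in WT, with a log2 change of 5.96 (SE 0.559, adjusted p = 4.25e-10, edgeR). TAD3 intron 2 was counted far less, with 7, 13 and 17 unspliced and 3, 1 and 0 spliced reads in prp2-1, against 0, 0 and 2 unspliced and 2, 3 and 9 spliced reads in WT. With a mean of 9.5 reads it was set aside. Without the filter its ratio also rose, by 5.72 on the log2 scale (SE 1.65, adjusted p = 0.00131, edgeR).

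Within each library the log2 ratio of TAD3 intron 1 minus that of intron 2 was 3.80, 0.52 and -1.22 in prp2-1 replicates A, B and C, and 0.83, 0.66 and 0.03 in WT. The prp2-1 values surround the WT values. The means differed by 0.53 (two-sided exact permutation p = 0.9, where 3 against 3 libraries cannot give less than 0.1). Without prp2-1 replicate A the difference was -0.86 (exact permutation p = 0.3). It was 1.42 with a pseudocount of 1 in place of 0.5 and 1.84 in the draws (exact permutation p = 0.4 and 0.1). With 3 libraries a group this test cannot pass 0.05, so whether the introns differ in their response is not resolved.

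NMD2, the decay factor gene, varied little between libraries. It had 246, 388 and 383 unspliced and 42, 53 and 54 spliced reads in prp2-1, against 32, 38 and 55 unspliced and 177, 228 and 279 spliced reads in WT. Its unspliced percent was 87.0% ± 1.39 in prp2-1 and 15.4% ± 1.09 in WT, and the log2 change 5.21 (SE 0.395, adjusted p = 1.09e-11, edgeR).

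Ordered by unspliced percent in prp2-1, the introns ran from SMD2 and MUD1, whose libraries overlapped, through YSF3 and TAD3 intron 1, which also overlapped, to LSM7, TAD3 intron 2, NMD2, LSM2 and POP8, each of which overlapped the next. MUD1 and YSF3 did not overlap, nor did TAD3 intron 1 and LSM7. TAD3 intron 2, at 70.0%, 92.9% and 100% in prp2-1, overlapped every other member, so its place there is not resolved. LSM2, which reached 94.3% in prp2-1 replicate C, also overlapped TAD3 intron 1. In WT, YSF3 stood above all others without overlap, SMD2 overlapped TAD3 intron 1, and NMD2 overlapped MUD1. TAD3 intron 2, at 0%, 0% and 18.2%, overlapped every other member but YSF3, so its place in the WT order is not resolved. LSM7, LSM2 and POP8 stood at the low end without overlap among themselves in the full counts. The order of the members by level in prp2-1 was thus not their order in WT: YSF3 led in WT and stood behind SMD2 and MUD1 in prp2-1. SMD2 and POP8 are placed in the WT order by the full counts alone. In the deepest draws POP8 averaged 8.74% in WT, above LSM7 at 5.55% and LSM2 at 2.98%.

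Among the 170 tested introns outside ribosomal protein genes, the change of the ratio ranked MUD1 at 17 and SMD2 at 23 from the top, LSM2 at 43 and LSM7 at 47. TAD3 intron 1 ranked 66, NMD2 91 and YSF3 96. POP8 ranked 3 in the full counts, where its WT unspliced count was 0. In the draws its log2 change was 5.39, beside a median of 5.40 over these 170 introns in the full counts. Members were also set beside other introns of like WT level. At 10% to 50% unspliced in WT, 46 other introns had a median log2 change of 6.05, with quartiles of 4.85 and 7.66. MUD1 and SMD2 lay above that range, and YSF3, TAD3 intron 1 and NMD2 inside it. At 1% to 10% in WT, 72 other introns reached a median of 64.5% in prp2-1 with a median log2 change of 5.42 and an upper quartile of 7.29, where LSM2 and LSM7 stand at 7.28 and 7.04. With the WT level of the draws SMD2 would fall in this lower class, as would POP8 at 8.74%. These ranks describe the introns and were not tested.

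Unspliced and spliced reads were next tested separately, scaled by the total over the targeted introns. Reads of the unspliced form rose in all 8 members (edgeR), where 90.9% of the 274 tested introns and 87.6% of the 170 outside ribosomal protein genes rose, with a median log2 change of 3.69 in the members, 3.31 without POP8 and SMD2 and 3.02 over all tested introns. Among the members with unspliced reads in WT and all libraries in the fit, LSM7 rose most, by 4.32 (SE 0.311, adjusted p = 3.58e-39, edgeR). Its unspliced reads stood at 1102, 816 and 1018 RPM in prp2-1 and 55.2, 58.5 and 37.7 RPM in WT, where RPM is the read count scaled to the counted reads of the library. LSM2 rose by 3.97, and by 4.56 without WT replicate C. MUD1 and SMD2 rose by 3.70 and 3.69, and TAD3 intron 1 and NMD2 by 2.93 and 2.91. YSF3 rose least, by 1.45 (SE 0.295, adjusted p = 1.26e-06, edgeR), with 301, 243 and 342 RPM in prp2-1 against 133, 114 and 85.8 RPM in WT. For POP8 the value rests on the 0 of the full counts and was 3.17 in the draws (adjusted p = 4.12e-08, edgeR, with the same limit on p-values from draws).

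**Figure D3:**
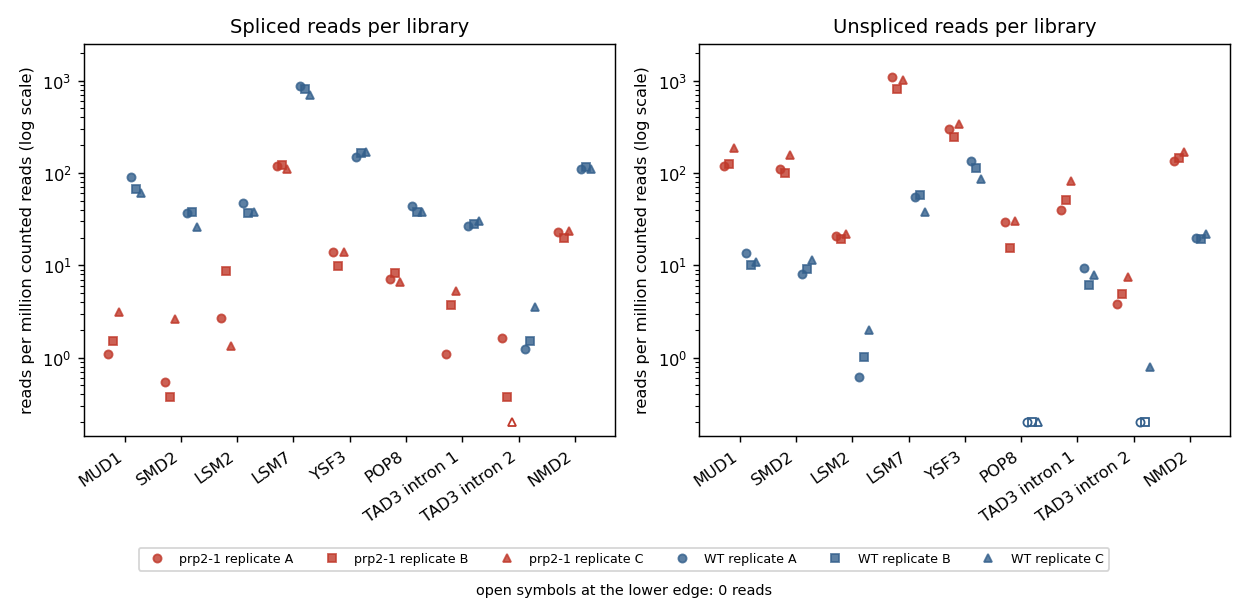
Spliced (left) and unspliced (right) reads of each intron in RPM (log scale), prp2-1 left of WT, 1 symbol per library and open symbols for 0 reads. Spliced reads of every intron but TAD3 intron 2 are lower in each prp2-1 library than in each WT library, and unspliced reads of all 9 are higher.

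Spliced reads fell in all 8 members, where 57.7% of all tested introns and 83.5% of the 170 outside ribosomal protein genes fell (edgeR). The median log2 change was -3.05 in the members, -0.91 over all tested introns and -2.59 over the 162 introns in neither a ribosomal protein gene nor a member. MUD1 fell by 5.16 on the log2 scale (SE 0.349, adjusted p = 4.92e-07, edgeR), with 1.08, 1.497 and 3.09 RPM of spliced reads in prp2-1 and 89.9, 67.0 and 60.8 in WT. SMD2 fell by 4.71 in the full counts and by 6.24 in the draws, whose spliced prp2-1 means were 0.4, 0.2 and 2 reads before rounding. Without prp2-1 replicate C, which holds 6 of its 8 spliced prp2-1 reads, the fall in the full counts was 6.01. YSF3, LSM2, TAD3 intron 1 and LSM7 also fell, with log2 changes of -3.64, -3.13, -2.96 and -2.72. POP8 fell by 2.39 and NMD2 by 2.30 (SE 0.175, adjusted p = 1.16e-06, edgeR), the smallest fall, with 22.8, 19.8 and 23.8 RPM in prp2-1 and 110, 115 and 111 in WT. For LSM2 the fall was 4.31 without prp2-1 replicate B, the library with 23 spliced reads.

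**Figure D4:**
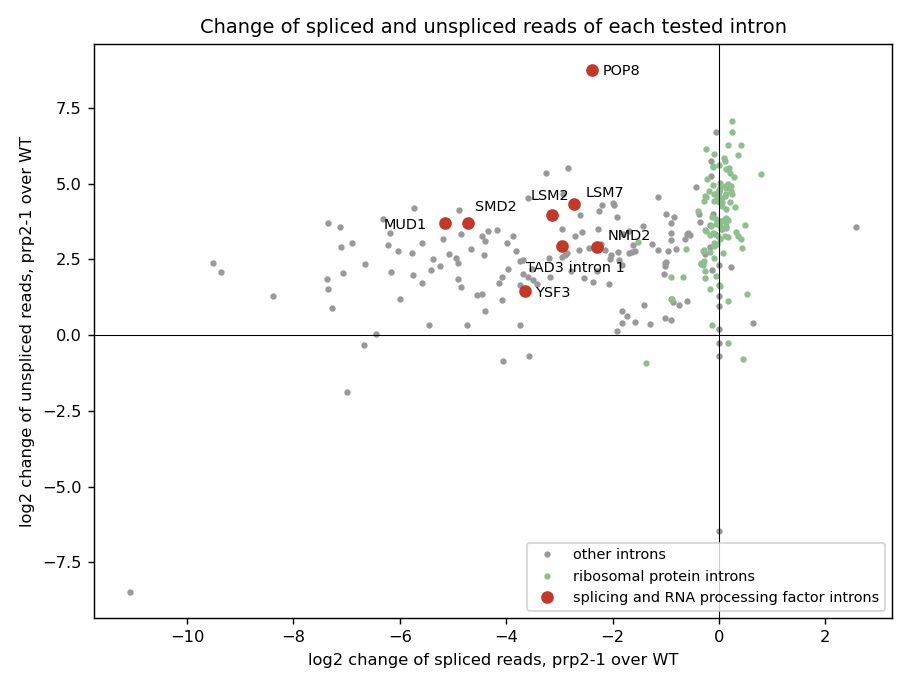
Log2 change of unspliced reads (vertical axis) against log2 change of spliced reads (horizontal axis), prp2-1 over WT, for the 274 tested introns, with the 8 members in red. All 8 lie at more unspliced and fewer spliced reads, from YSF3 at 1.45 to LSM7 at 4.32 on the vertical axis; POP8 lies above them because its WT unspliced count is 0 in the full table, and its position there depends on the small count added in the fit.

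Total reads, spliced and unspliced together, moved far less than either kind, and not in 1 direction. They rose in 4 members and fell in 1 (edgeR), where 19.7% of all tested introns rose and 23.7% fell. SMD2 rose by 1.56 on the log2 scale (adjusted p = 0.000439, edgeR), with 111, 101 and 158 RPM in prp2-1 and 44.7, 46.9 and 37.7 in WT. In the draws this was -0.04 (adjusted p = 0.92, edgeR), so the rise of SMD2 holds in the full counts only. MUD1 rose by 0.84 (adjusted p = 0.0197, edgeR), and 0.76 without WT replicate B and 0.72 without WT replicate C no longer passed (adjusted p = 0.0654 and 0.0749). Its libraries stood at 121, 128 and 190 RPM in prp2-1 and 104, 77.1 and 71.5 in WT, with no overlap.

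TAD3 intron 1 and LSM7 rose by 0.80 and 0.41 (adjusted p = 0.0469 and 0.0457, edgeR), both close to the threshold. The call of TAD3 intron 1 was lost with DESeq2, in the draws, with library totals in place of TMM, with scaling to the introns over 98% unspliced in WT, without any 1 WT replicate and without prp2-1 replicate B or C, and that of LSM7 with library totals, with the 98% scaling, without the filter on low counts, without any 1 WT replicate or prp2-1 replicate A. LSM2 was the only member that fell, by 0.71 (adjusted p = 0.0256, edgeR), with 23.3, 27.7 and 23.4 RPM in prp2-1 and 47.7, 37.8 and 40.1 in WT. It did not pass without WT replicate A, B or C, without prp2-1 replicate A, in the draws or with DESeq2, although the groups do not overlap. NMD2 (0.41, adjusted p = 0.0747), YSF3 (0.21, 0.347) and POP8 (-0.27, 0.378) did not pass in edgeR, although NMD2 passed narrowly with RLE size factors in place of TMM (0.44, adjusted p = 0.0496). Every prp2-1 library was above every WT library in 5 members and below in 2, where 23.0% and 33.2% of all tested introns do so, and YSF3 overlapped. Scaled instead to the 13 introns over 98% unspliced in WT, the median of all introns moved by -0.29 and only 2 members rose. Total reads count RNA per targeted RNA, and fewer cells with the RNA and less RNA per cell cannot be told apart.

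A second list held other intron-containing genes of RNA processing and export: YRA1, DBP2, SUS1, MTR2, STO1, PSP2, MPT5, CGI121, NOG2 and the U3 RNA genes SNR17A and SNR17B, with 12 introns in all. The ratio rose in 11 of 12 (edgeR), near the 93.4% of all tested introns. Its median log2 change in the list was 5.12, beside 7.16 in the 8 members and 6.50 in the members without POP8 and SMD2. Over all tested introns it was 4.65, and over the 170 outside ribosomal protein genes, where this list belongs, 5.40. The largest change was in SNR17B, at 6.75 (adjusted p = 3.29e-14, edgeR), with 23.6% ± 3.18 unspliced in prp2-1 and 0.286% ± 0.0127 in WT. The middle of the list lay between SNR17A at 5.41, with 77.1% ± 1.33 in prp2-1 and 7.38% ± 0.791 in WT, and STO1, the large subunit of the cap-binding complex, at 4.82. The smallest was in PSP2, an mRNA-binding protein gene that was already at 99.9% ± 0.181 in WT and at 100% in prp2-1 (2.01, adjusted p = 0.222, edgeR), and did not pass. Spliced reads fell in 7 of the 12, where 57.7% of all tested introns and 83.5% of the 170 outside ribosomal protein genes fell. Unspliced reads rose in 9, where 90.9% and 87.6% rose.

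For each member the most similar intron outside the 8 genes was found by the distance between log2 ratios of the 6 libraries. NMD2 was closest to QCR10 (YHR001W-A; distance 0.755, where the median over other introns was 10.4), LSM7 to OM14 (YBR230C; 0.825, median 10.1) and YSF3 to intron 1 of SUS1 (1.07, median 12.5). TAD3 intron 1 was closest to CGI121 (1.15), whose product acts in tRNA modification, with 94.1% ± 3.03 unspliced in prp2-1 and 18.6% ± 3.26 in WT. SMD2 was closest to MOB1 (1.66), MUD1 to QCR9 (1.79), LSM2 to RPO26 (2.02) and POP8 to UBC4 (2.04). The distances of SMD2 and POP8 rest on the full counts.

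The draws at 3 depths show how far these introns could be read with fewer reads. Each library was drawn 5 times at 200000, 400000 and 800000 reads, of which on average 137745, 275571 and 551593 were counted. Over the 9 introns, prp2-1 draws had no spliced read in 59, 45 and 27 of 135 cases from the lowest to the highest depth, and WT draws had no unspliced read in 45, 35 and 23. MUD1 lacked a spliced read in 11, 9 and 5 of 15 prp2-1 draws, and SMD2 in 12, 11 and 7. LSM2 lacked an unspliced read in 14, 12 and 9 of 15 WT draws. LSM7 had both kinds in every draw (0 of 90 lacked either), and its mean unspliced percent stayed at 88.4% to 88.8% in prp2-1 and 5.34% to 5.77% in WT. Draws of 1 library share reads, so these counts are a description.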

How the data were processed

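Spliced and unspliced reads per intron were deposited by the authors as raw counts, 1 pair per intron and library, with a second deposited table of counts from 5 random draws of each library at 3 depths. The reads had been handled with fastp 0.19.5, HISAT2 2.2.1 and SAMtools on build R64, per the submitters' processing notes. The counting rule and the treatment of duplicates are stated in none of the labels or headers. The headers of draw size and seed in the second table look interchanged, and library totals follow the column used here as the size.

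Introns with a mean of at least 10 reads over the 6 libraries were tested (274, with 35 set aside). edgeR 4.0.16 in R 4.3.3 gave quasi-likelihood tests at a Benjamini-Hochberg adjusted p under 0.05 over all 274. The ratio was tested as the interaction of read type and genotype with a term for each library. Spliced, unspliced and total reads were tested with TMM factors of total reads (0.967 to 1.02). Standard deviations are between 3 libraries, and intervals of a percent are Wilson 95% intervals. Replicates of a group differed beyond counting error (chi-square per degree of freedom 19.4 to 77.7), so none was taken as a copy of another. This does not show that they came from separate cultures. DESeq2 1.42.0, limma 3.58.1, other scalings, no filter, a replicate block, the draws and the omission of each library were the alternatives. For the draws each library was the mean of its deepest draws, rounded to whole reads for the fits. Such a mean has less counting error than a single draw. Calls and p-values from the draws are therefore a description. The tests were tried on simulated data.

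The members and lists were chosen with earlier results of these data known. All introns of the 8 genes were named, and of the second list the introns with the largest, smallest and median change. The intron nearest to each member was also named. Intron positions come from the RefSeq annotation of R64, on which 279 of 309 introns could be placed.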

Additional observations from a re-analysis of the deposited data

Results flagged for a closer look

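POP8 had 0 unspliced reads in the 3 WT libraries of the full table, but the deepest random draws of the same libraries held a mean of 5.2 over the 3 libraries. This is a signal in the drawn counts, which the main comparison does not use, where the full counts have none. The drawn counts put POP8 at 75.3% ± 3.85 unspliced in prp2-1 and 8.74% ± 4.11 in WT (SD, n = 3).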

How the results depend on the processing

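The ratio, the unspliced reads and the spliced reads kept their direction and their call in all 8 tested members under every alternative run, with 9 members called for the ratio and for unspliced reads without the filter on low counts. The log2 change of the ratio ranged from 5.39 to 11.44 in POP8, from 8.08 to 10.21 in SMD2 and from 6.42 to 8.31 in LSM2. Total reads depended on the processing. Members with more total reads numbered 4, but 2 in the draws, 2 with library totals and 2 when scaled to introns over 98% unspliced in WT, and 1 to 3 with 1 library left out. They numbered 5 with RLE size factors, where NMD2 was added, and 3 with DESeq2 and without the filter. The 1 member with fewer total reads became 0 with DESeq2 and 0 in the draws, and 0 to 1 with 1 library left out. The total of SMD2 was -0.040 in the draws and that of YSF3 -0.080 under the 98% scaling, both on the log2 scale. The difference of the TAD3 introns ranged from -0.86 to 1.65 with 1 library left out. The median member stood at 10.8% unspliced in the WT draws, against 14.6% in full. The cause of these changes was not tested.

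Replicate letters were not taken to pair the samples, and whether they mark a shared batch is not resolved with 3 letters. Same-letter libraries deviated together with r = 0.0924, 0.205 and 0.272 for the ratio, where each library correlated best with its own letter. For total reads the values were 0.263, -0.0869 and 0.00673. With the replicate block the calls were 8 for the ratio, 8 for unspliced and 8 for spliced reads, 3 higher and 1 lower for total reads, where LSM7 missed the threshold (0.41, adjusted p = 0.0551, edgeR). The TAD3 difference was 0.53 with an exact permutation p of 1. Depth limits TAD3 intron 2 most, with 16 WT reads in all.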
